A study of Mus musculus with 7 samples.

Results

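A set of 9 genes that build, trim and regulate glycogen was followed in the extensor digitorum longus of mice, a muscle of the lower leg made mostly of fast fibres. They were Gys1, Gbe1 and Ugp2 on the synthesis side, Pygm, Phka1, Phkb and Phkg1 on the breakdown side, and the regulators Epm2a and Ppp1r3d. They were chosen by gene symbol, with earlier results of these arrays known, and all 9 of the 19938 genes named on the arrays were measured, each by 1 probe set. The arrays compared 4 wild type mice with 3 mice labelled AMPKα1α2 double knockout, 1 single-colour array per mouse. Both catalytic subunits of AMP-activated protein kinase (AMPK), the kinase that answers a fall in cellular energy, are named in that genotype. The strain of all 7 mice is labelled as mixed between C57/Bl6 and SV129. The labels and design text were the sources for the groups. Age, sex, exercise before sampling, and the promoter or Cre line behind the knockout are not stated in those sources. The series title concerns fatty acid use by muscle during exercise, and the question asked here was whether transcripts of the glycogen store differed between the genotypes.

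Glycogen is a branched glucose polymer stored inside muscle fibres as fuel for contraction. UDP-glucose is made by the product of Ugp2, added to growing chains by glycogen synthase (Gys1) and rearranged into branches by the branching enzyme (Gbe1). Glycogen phosphorylase (Pygm in muscle) releases glucose units as phosphorylated glucose and is switched on by phosphorylase kinase, whose muscle α, β and catalytic γ subunits are encoded by Phka1, Phkb and Phkg1. Laforin (Epm2a) removes phosphate from glycogen, and Ppp1r3d encodes a subunit that brings protein phosphatase 1 to it. AMPK itself carries a glycogen-binding region in its β subunits and is known to phosphorylate glycogen synthase.

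Stretches upstream of the annotated starts of 3 of these genes are shown because Ugp2 was the member whose genotypes did not overlap, Gbe1 had the most negative difference and Pygm the smallest one. Each run holds the 250 bases before a RefSeq start in assembly GRCm38.p6, read 5′ to 3′ on the gene's strand. Capitals mark matches on either strand to the motifs CAGCTG (an E-box), CACGTG (another E-box), AAGGTCA (a nuclear receptor half-site), CTATTTA (part of a MEF2-type site) and GGGCGG (a GC box).
Ugp2, chr11:21370630-21370879, minus strand: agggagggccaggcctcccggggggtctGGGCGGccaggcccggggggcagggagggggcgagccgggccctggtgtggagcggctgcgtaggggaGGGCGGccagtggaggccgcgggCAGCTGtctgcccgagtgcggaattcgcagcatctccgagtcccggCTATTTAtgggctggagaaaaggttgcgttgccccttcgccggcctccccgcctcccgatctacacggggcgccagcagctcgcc
Ugp2, chr11:21371268-21371517, minus strand: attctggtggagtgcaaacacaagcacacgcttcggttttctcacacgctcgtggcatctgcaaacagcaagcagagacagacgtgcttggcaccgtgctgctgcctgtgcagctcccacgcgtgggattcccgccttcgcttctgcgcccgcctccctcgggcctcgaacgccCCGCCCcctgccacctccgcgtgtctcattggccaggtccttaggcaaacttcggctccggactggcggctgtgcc
Gbe1, chr16:70313699-70313948, plus strand: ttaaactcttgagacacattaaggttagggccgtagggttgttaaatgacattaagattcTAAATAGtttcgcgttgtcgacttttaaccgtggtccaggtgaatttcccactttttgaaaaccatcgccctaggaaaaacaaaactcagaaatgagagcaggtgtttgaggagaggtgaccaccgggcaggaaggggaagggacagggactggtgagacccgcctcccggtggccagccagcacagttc
Pygm, chr19:6384158-6384407, plus strand: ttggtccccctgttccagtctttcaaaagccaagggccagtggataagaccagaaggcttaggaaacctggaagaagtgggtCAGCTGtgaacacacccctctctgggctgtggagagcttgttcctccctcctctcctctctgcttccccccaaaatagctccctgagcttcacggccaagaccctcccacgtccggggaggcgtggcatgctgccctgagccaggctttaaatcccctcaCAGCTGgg
CTATTTA was found upstream of 1 of the 2 Ugp2 starts and of the Gbe1 start, that is in 2 of the 10 windows of the 9 genes, against 2.63% of 32851 windows of all genes. CAGCTG occurred in 4 of the 10 windows, with 2 matches upstream of Pygm, against 13.0% of all windows. GGGCGG occurred in 7 of 10 against 32.7%, CACGTG in 1 of 10 against 6.02%, and AAGGTCA in 0 of 10 against 4.08%. The windows of the 9 genes held 48.8% to 79.2% G and C bases, with 8 of 10 above the median of all windows, 52.4%, and the part of base content in the GGGCGG count was not tested. The arrays did not measure binding, so these matches only describe the letters.

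The arrays were first read for the labels and for libraries that stood apart. Prkaa1, encoding the α1 catalytic subunit, read 9.54, 9.48, 9.61 and 9.53 in wild type mice and 9.09, 9.19 and 8.80 in knockout mice, here and below in the order of the replicate numbers. Prkaa2, encoding α2, read 12.31, 12.03, 12.28 and 12.28 against 12.04, 11.95 and 12.04. Neither passed the limma test adjusted over the whole table (Benjamini-Hochberg adjusted p = 0.12 and 0.39), and the exons deleted are not given, so genotype here means what each label gives. The β subunits, which bind glycogen, differed by 0.0086 ± 0.050 (Prkab1) and -0.21 ± 0.08 (Prkab2), and the γ subunits by -0.21 ± 0.07 (Prkag1), 0.23 ± 0.09 (Prkag2) and 0.16 ± 0.14 (Prkag3). Skeletal muscle markers such as Ckm and Acta1 were present at 14.13 and 14.21 in wild type, and the mean over all 10 muscle fibre markers ran from 13.84 to 13.88 in wild type and from 13.83 to 13.85 in knockout arrays. Array medians lay between 7.50 and 7.58, with knockout replicate 3 at 7.58 and the other 6 arrays at 7.50 to 7.54. Knockout replicate 3 also had the highest lower quartile (6.58 against 6.48 to 6.54) and the lowest upper quartile (8.80 against 8.82 to 8.86). Knockout replicate 2 stood apart in immediate early genes, with a mean over 13 of them of 10.34 against 8.29 to 8.72 in the other 6 arrays. All 13 were higher in the comparison of the 3 knockout with the 4 wild type arrays, and 0 passed in limma with adjustment over all genes. The smallest p belonged to Atf3, at 2.09 ± 0.61, which was above every wild type array in all 3 knockout arrays (10.12, 12.35 and 10.57 against 8.41 to 10.02), and to Myc, at 0.87 ± 0.45. Among the muscle fibre markers it belonged to Mb at -0.16 ± 0.04 and Casq1 at 0.08 ± 0.03.

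None of the 9 glycogen genes passed the test between the genotypes. Ugp2, Gbe1 and Epm2a read 1.25-fold, 1.26-fold and 1.18-fold lower, while the phosphorylase Pygm and its kinase subunits differed by 1.05-fold or less. Ppp1r3d alone among the 9 read higher, by 1.11-fold. In limma over all genes, 0 of the 9 had an adjusted p under 0.05, where 5 of 19938 genes (0.0251%) did. With wild type replicate 1, 3 or 4 left out that count was 0, with wild type replicate 2 left out it was 1, and with knockout replicate 2 or 1 left out it was 2 or 14.

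At an unadjusted p under 0.05, 3 of the 9 were lower (Ugp2, Epm2a and Gbe1), where 6.69% of all genes were, and 1 was higher (Ppp1r3d), where 3.93% were. These 4 were already known from an earlier look at the same arrays when the 9 genes were put together, so the counts describe them and support nothing. Together they numbered 4, and this number was 2 when wild type replicate 3 was left out, 1 when knockout replicate 2 was, and 2 when knockout replicate 3 was. Of all 19938 genes, 2118 had such a p with all arrays, and 1505, 1484 and 2007 did in those fits, in that order. The median of the 9 differences was -0.065, beside -0.0049 over all genes and -0.017 over the 10889 genes left when dim probe sets were dropped. The median of the 9 was -0.035 without wild type replicate 1 and -0.033 without knockout replicate 3. Differences were below 0 for 8 of the 9, where 53.3% of all genes were below 0 (63.6% with arrays centred on their medians). With dim probe sets dropped, which kept all 9, the share of genes below 0 was 58.2%. With 3 arrays against 4 an exact permutation test cannot go below a two-sided p of 0.0571, so no single gene can pass 0.05 by it.

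**Figure D1:**
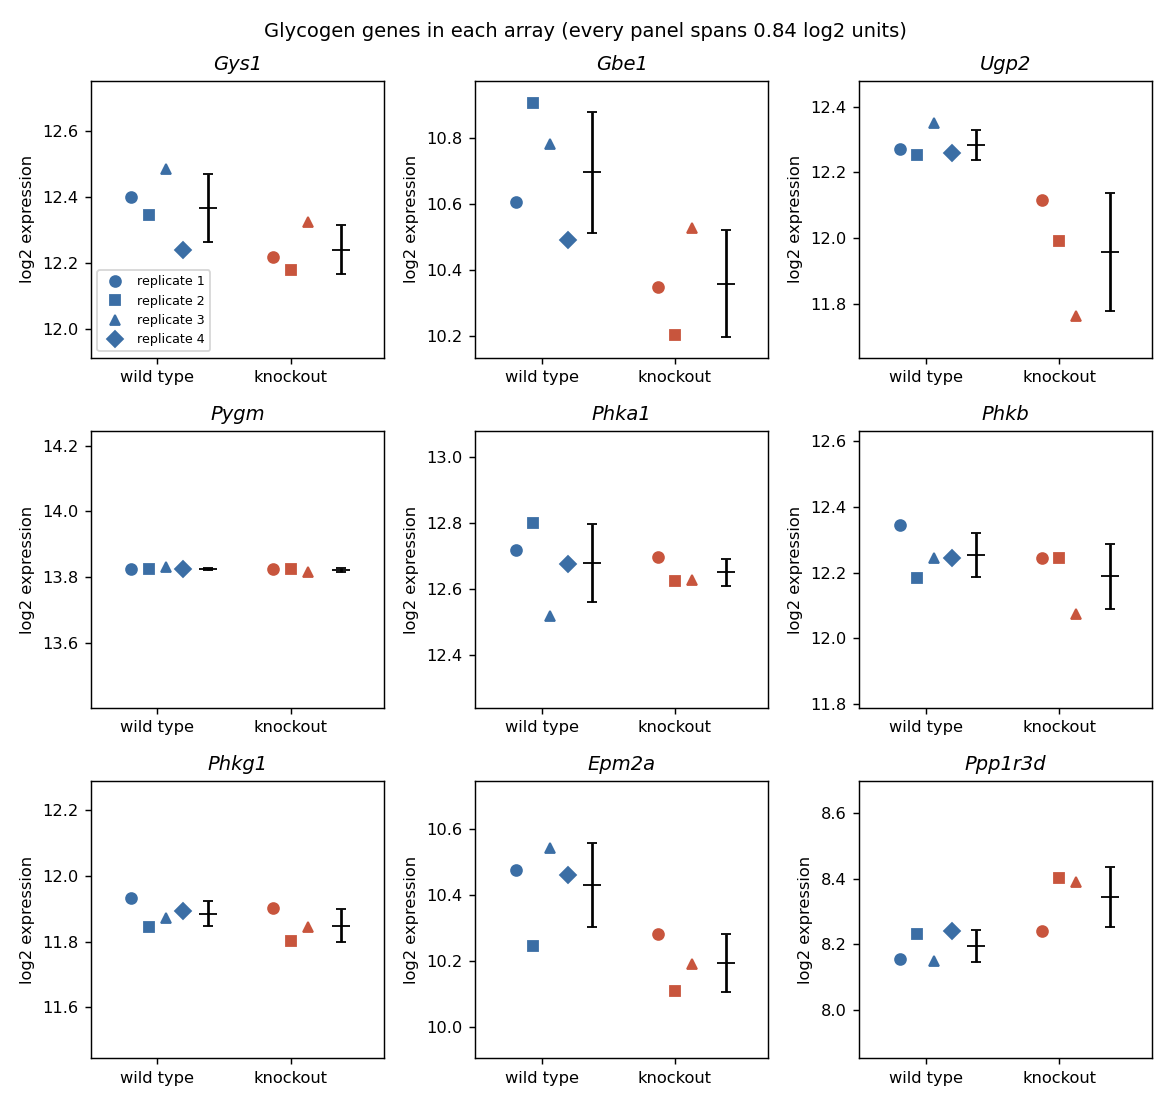
Log2 expression of the 9 glycogen genes in each array, wild type (blue, n = 4) and knockout (red, n = 3). Symbols show the replicate number (circle 1, square 2, triangle 3, diamond 4), black bars the mean and SD, and every panel spans the same height. Ugp2 is the gene with no overlap (11.76 to 12.12 against 12.25 to 12.35), and Pygm lies flat at 13.82 to 13.83.

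Ugp2 encodes UDP-glucose pyrophosphorylase, which makes the activated sugar that all glycogen synthesis uses. Its log2 values were 12.27, 12.25, 12.35 and 12.26 in wild type mice and 12.12, 11.99 and 11.76 in knockout mice. Every knockout value was lower than every wild type value, as for 5.33% of all genes (3.29% had every knockout value higher, which held for 0 of the 9), and the knockout arrays were further apart from each other than the wild type arrays. Wild type muscle averaged 12.28 ± 0.05 (SD, n = 4) and knockout muscle 11.96 ± 0.18 (SD, n = 3), which is a difference of -0.33 ± 0.08 (SE) on the log2 scale with a 95% interval from -0.52 to -0.13. The limma adjusted p was 0.25, and the exact two-sided permutation p was 0.0571, the smallest it can give. Ugp2 stood 397th of 19938 genes by p, and 1.28% of genes had a more negative difference. Without knockout replicate 3, its lowest array, the difference was -0.23, and without knockout replicate 1 it was -0.41.

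Gbe1, the branching enzyme, had the most negative difference of the 9 and also the widest spread. It read 10.60, 10.91, 10.78 and 10.49 in wild type mice and 10.35, 10.20 and 10.53 in knockout mice. Wild type replicate 4 lay below knockout replicate 3, so the groups overlapped. The log2 difference was -0.34 ± 0.12 (SE, 95% interval -0.61 to -0.06), with a limma adjusted p of 0.40 and an exact permutation p of 0.114. The spread within groups, 0.18, was larger than that of 92.4% of all genes, against a median of 0.076. Leaving out 1 array moved the difference between -0.42 and -0.26.

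Gys1, muscle glycogen synthase, read 12.40, 12.34, 12.49 and 12.24 in wild type mice and 12.22, 12.18 and 12.32 in knockout mice. Knockout replicates 1 and 2 lay below every wild type array, and replicate 3 lay inside the wild type range. The log2 difference of -0.13 ± 0.07 (SE, 95% interval -0.28 to 0.03) did not pass in limma (adjusted p = 0.57). Its direction was negative without any 1 array, from -0.17 to -0.088. Gys2, the liver form of the synthase, differed by -0.08 ± 0.06, reading 6.01 to 6.19 in wild type and 5.94 to 6.07 in knockout arrays.

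On the breakdown side, Pygm had the smallest difference of the 9. This phosphorylase is the enzyme missing in McArdle disease, in which muscle cannot use its glycogen. It read 13.825, 13.825, 13.831 and 13.825 in wild type mice and 13.825, 13.825 and 13.816 in knockout mice. The same value, to every digit in the table, stood in 5 of the 7 arrays. The log2 difference was -0.0045 ± 0.025 (SE), and its 95% interval ran from -0.063 to 0.054 (limma adjusted p = 0.97). Values shared between arrays are common in this table: 59.1% of tested probe sets had at least 2 arrays with an identical value, and 5.11% had at least 5. Pygm was also near the top of the signal range, above 99.94% of the tested probe sets, with 14.65 the largest value in the table. Whether the signal was compressed there was not tested, and the spread of Pygm within groups was 0.0041, smaller than that of all but 0.401% of genes. The other phosphorylase forms did not pass either, with Pygb (brain form) at 0.03 ± 0.07 and Pygl (liver form) at 0.02 ± 0.03, which was below 0 with arrays centred on their medians.

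The 3 subunits of phosphorylase kinase each overlapped between genotypes. Phka1, the muscle form of the regulatory α subunit, read 12.72, 12.80, 12.52 and 12.67 in wild type mice and 12.70, 12.63 and 12.63 in knockout mice. Wild type replicate 3 was the lowest of all 7 arrays, and the difference of -0.03 ± 0.07 (SE, 95% interval -0.18 to 0.13) turned to 0.01 without wild type replicate 2. Phkb, the regulatory β subunit shared by muscle and liver, read 12.34, 12.18, 12.24 and 12.24 in wild type mice and 12.24, 12.25 and 12.08 in knockout mice. Only knockout replicate 3 lay below the wild type arrays, and the difference of -0.07 ± 0.06 (SE, 95% interval -0.20 to 0.07) was -0.0088 without it.

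Phkg1, the catalytic γ subunit of muscle, read 11.93, 11.84, 11.87 and 11.89 in wild type mice and 11.90, 11.80 and 11.84 in knockout mice. Knockout replicates 2 and 3 lay just under the lowest wild type array and replicate 1 near the top of the wild type range, and the difference was -0.04 ± 0.04 (SE, 95% interval -0.12 to 0.05). The limma adjusted p was 0.92 for Phka1, 0.75 for Phkb and 0.79 for Phkg1. The intervals bound each difference but include values other than 0, so these tests do not show that the subunits were equal. Phka2 and Phkg2, the forms known from liver, differed by -0.06 ± 0.05 and 0.02 ± 0.04. Calmodulin, the fourth subunit, is encoded by several genes, of which Calm2 differed by -0.10 ± 0.08 and Calm3 by -0.11 ± 0.09.

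**Figure D2:**
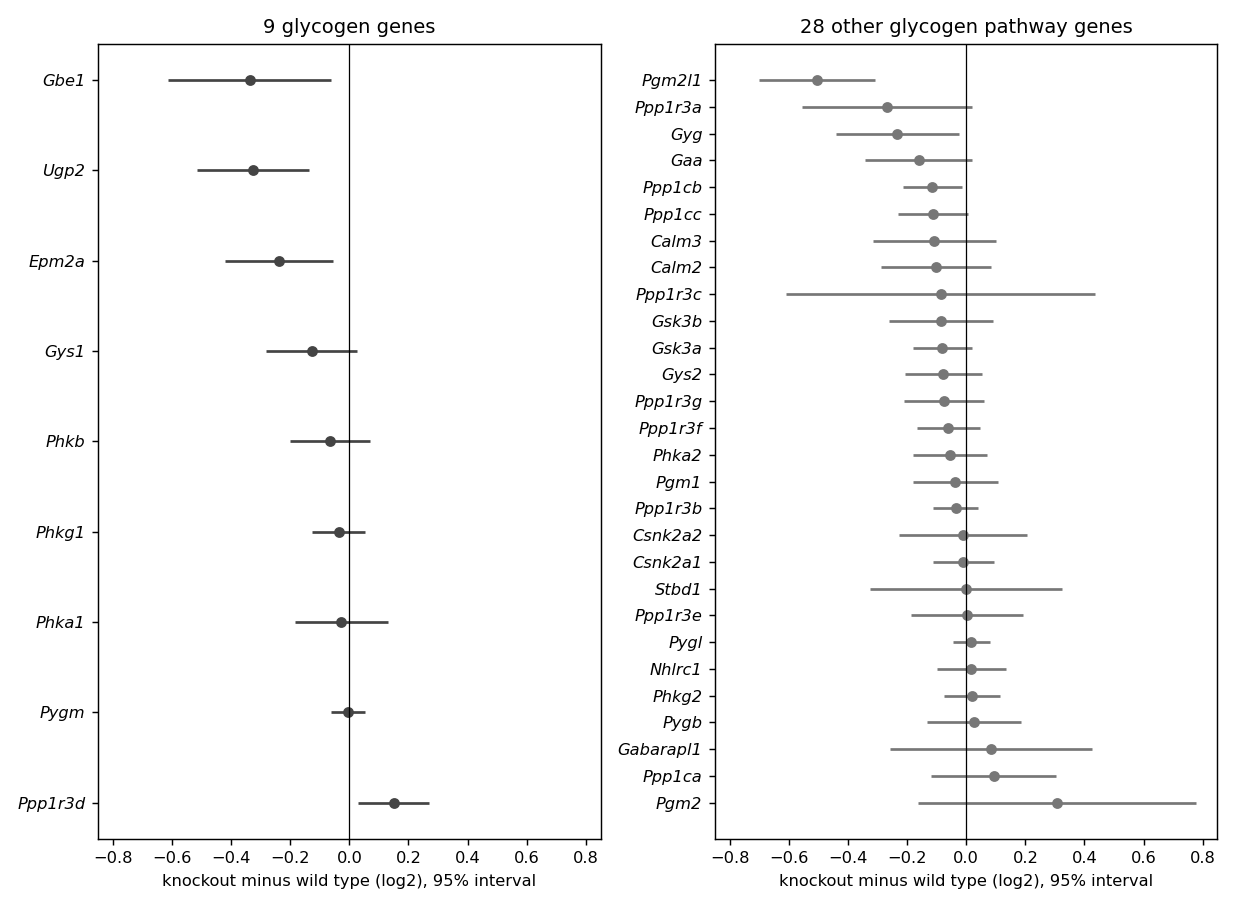
Knockout minus wild type differences (log2, points) with 95% intervals from limma (lines) for the 9 glycogen genes and for 28 further genes of the pathway, ordered by difference. The intervals of Gbe1, Ugp2 and Epm2a lie below 0 and that of Ppp1r3d above 0 before adjustment for the number of genes tested, and Pgm2l1 has the most negative difference, -0.51.

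The regulators Epm2a and Ppp1r3d differed in opposite directions. Epm2a encodes laforin, whose loss in Lafora disease leads to poorly branched glycogen that forms deposits. It read 10.48, 10.25, 10.54 and 10.46 in wild type mice and 10.28, 10.11 and 10.19 in knockout mice. Wild type replicate 2 lay among the knockout arrays, and the other 3 wild type arrays lay above all of them. The difference was -0.24 ± 0.08 (SE, 95% interval -0.42 to -0.05), with a limma adjusted p of 0.37 and an exact permutation p of 0.114. It was -0.30 without wild type replicate 2 and -0.20 without knockout replicate 2. Nhlrc1, which encodes malin, the ubiquitin ligase that works with laforin, differed by 0.02 ± 0.05. Stbd1, a glycogen-binding protein linked to its delivery to lysosomes, differed by -0.0015 ± 0.14, with 7.77 to 8.36 in wild type arrays alone.

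Ppp1r3d read 8.16, 8.23, 8.15 and 8.24 in wild type mice and 8.24, 8.40 and 8.39 in knockout mice. Knockout replicates 2 and 3 lay above every wild type array, and knockout replicate 1 had exactly the value of wild type replicate 4. The difference was 0.15 ± 0.05 (SE, 95% interval 0.03 to 0.27), with a limma adjusted p of 0.39 and an exact permutation p of 0.114. Leaving out knockout replicate 1 gave 0.20, and leaving out knockout replicate 2 gave 0.12. Ppp1r3d belongs to a family of subunits that tie protein phosphatase 1, which activates the synthase and switches off the phosphorylase, to the glycogen particle. Ppp1r3a, the large form of striated muscle, differed the other way, by -0.27 ± 0.12 (limma adjusted p = 0.50). Ppp1r3c, known as protein targeting to glycogen, differed by -0.09 ± 0.22 and varied from 11.61 to 12.36 among wild type arrays. The remaining forms differed by -0.04 ± 0.03 (Ppp1r3b), 0.0022 ± 0.080 (Ppp1r3e), -0.06 ± 0.05 (Ppp1r3f) and -0.08 ± 0.06 (Ppp1r3g).

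The rest of the pathway was also listed with earlier results known. The share of all genes below wild type was 53.3% as deposited, 55.5% after quantile normalization and 63.6% with arrays centred on their medians. Of 28 further glycogen genes measured, 20 were below wild type (19 after quantile normalization, 22 with median centring) and 8 above. With adjustment over all genes, 0 of the 28 passed. At an unadjusted p under 0.05, 3 were lower, or 10.7% where all genes gave 6.69%, and 0 were higher. The number lower at that p was 1 with wild type replicate 1 or 4 left out and 7 with knockout replicate 1 left out. Counts over all genes, in either direction, moved too: 1581, 1608 and 2687 in those fits, in that order, against 2118 with all arrays. Their median difference was -0.058, and -0.039 without wild type replicate 4.

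The 4 further genes with the smallest p were Pgm2l1, Ppp1cb, Gyg and Ppp1cc. Pgm2l1 encodes glucose-1,6-bisphosphate synthase, which makes a cofactor of phosphoglucomutase. It read 9.05, 8.96, 8.97 and 8.98 in wild type mice and 8.70, 8.40 and 8.35 in knockout mice. The groups were 0.26 apart at their nearest arrays, and the difference of -0.51 ± 0.08 (SE) had a limma adjusted p of 0.11. Pgm1, the phosphoglucomutase that links glycogen to glycolysis, differed by -0.04 ± 0.06, and its relative Pgm2 by 0.31 ± 0.20. For Pgm2, knockout replicate 2 read 9.02 and the other 6 arrays 8.03 to 8.23.

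Gyg, the glycogenin that primes each particle, read 12.50, 12.25, 12.47 and 12.37 in wild type mice and 12.34, 12.09 and 12.07 in knockout mice, a difference of -0.23 ± 0.09 with overlap at knockout replicate 1. With Pgm2l1, 3 of the 28 further genes had every knockout value below every wild type value, where 5.33% of all genes did. The others were Ppp1cb and Ppp1cc, catalytic subunits of protein phosphatase 1, which differed by -0.11 ± 0.04 and -0.11 ± 0.05. For Ppp1cb and Ppp1cc the nearest arrays of the groups were only 0.0052 and 0.0034 apart. Their limma adjusted p was 0.42 and 0.50, and that of Gyg 0.43. Gaa, the lysosomal glucosidase lacking in Pompe disease, differed by -0.16 ± 0.08.

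**Figure D3:**
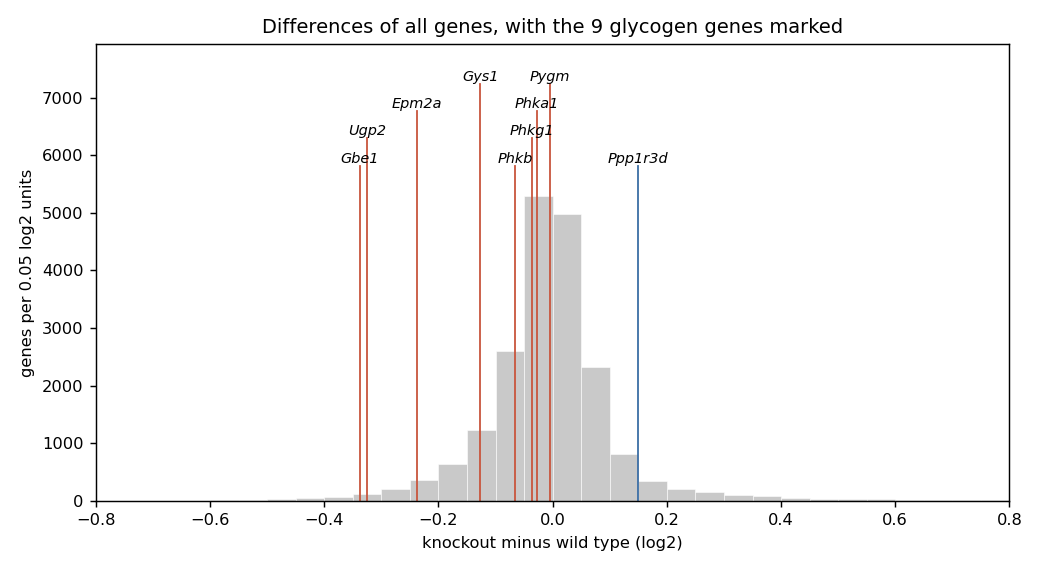
Number of genes per 0.05 log2 units of difference between knockout and wild type (grey bars, 19938 genes, axis shown from -0.8 to 0.8), with the 9 glycogen genes marked by lines (red below 0, blue above 0). Gbe1 and Ugp2 lie in the left tail (1.14% and 1.28% of genes are lower), and Pygm, at 50.3%, lies in the middle.

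Set against all genes, the 9 spread from the left tail to the right shoulder of the distribution. The share of genes with a more negative difference was 1.14% for Gbe1, 1.28% for Ugp2, 3.05% for Epm2a and 9.96% for Gys1. It was 21.9% for Phkb, 32.7% for Phkg1, 37.1% for Phka1 and 50.3% for Pygm. Among these 9, chosen with earlier results known, the 3 synthesis genes preceded all 4 breakdown genes in that order. The lysosomal glucosidase Gaa, outside the 9, stood at 6.81%, before Gys1. Ppp1r3d stood at 94.1%. The intervals of Gys1 and Phkb overlap widely. Those of Gbe1 (-0.61 to -0.06) and Ugp2 (-0.52 to -0.13) also overlap those of Phkb (-0.20 to 0.07) and Phka1 (-0.18 to 0.13). Pygm, last among the 3 synthesis and 4 breakdown genes, held the same value in 5 of the 7 arrays. So the data do not resolve the order of the synthesis and breakdown genes.

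Single knockout arrays contributed unequally. Knockout replicates 2 and 3 each lay below the lowest wild type array for 5 of the 9 genes, and knockout replicate 1 for 3, while for all genes the shares were 30.3%, 23.5% and 24.9%. Because the 9 were chosen with earlier results known, these counts only describe them. Knockout replicate 2 was the lowest of all 7 arrays for Gys1, Gbe1, Phkg1 and Epm2a, and knockout replicate 3 for Ugp2, Pygm and Phkb. Wild type replicate 3 was the lowest for Phka1 and Ppp1r3d and the highest for Gys1, Ugp2, Pygm and Epm2a. Hence the genes that read lower did not share 1 order of arrays.

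**Figure D4:**
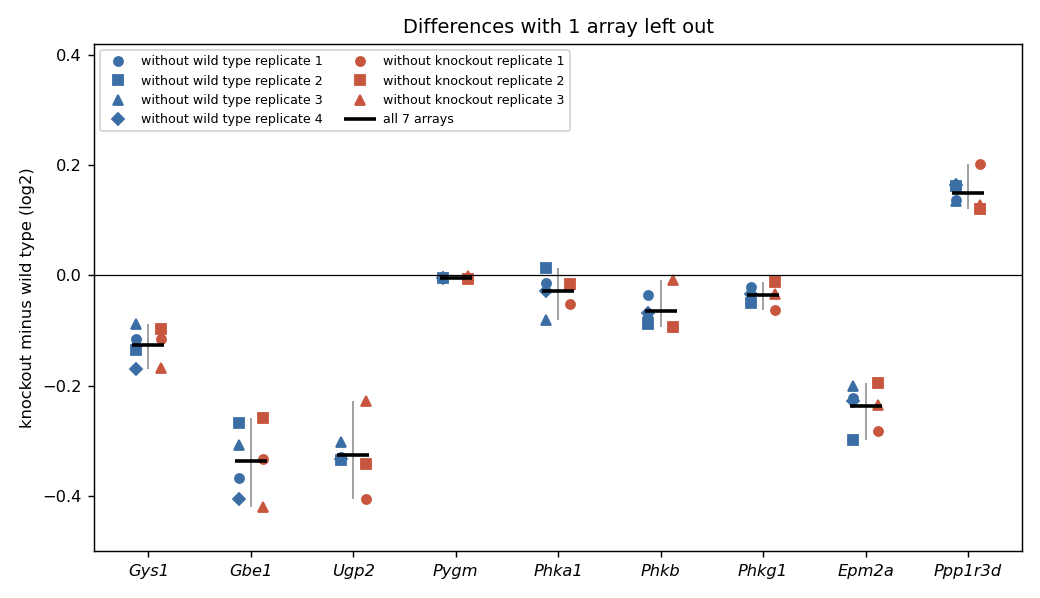
Knockout minus wild type difference (log2) of each glycogen gene with all 7 arrays (black bar) and with 1 array left out (blue for a wild type array, red for a knockout array, symbols for replicate numbers as circle 1, square 2, triangle 3, diamond 4). Phka1 crosses 0, at 0.01 without wild type replicate 2, and Ugp2 ranges from -0.41 to -0.23.

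The genes of the table whose deviations from their own mean came closest to a glycogen gene were sought for the 3 members with the widest spread over the 7 arrays. For Ugp2 they were Acat1, the mitochondrial acetyl-CoA acetyltransferase (root mean square difference 0.030 log2 units), Nudt19 (0.038) and Zfp462 (0.040). Their own differences between genotypes were -0.30 ± 0.07, -0.34 ± 0.10 and -0.27 ± 0.07. The match was sought over the same 7 arrays with the genotype difference left in, so similar differences follow from the choice. For Gbe1 they were Pacsin3 (0.073), Fxyd6 (0.086) and Klhl4 (0.087), a looser match. For Epm2a they were Cbfb (0.022), Ggps1 (0.027) and Cdh23 (0.032). None of these genes passed in limma, with adjusted p between 0.24 and 0.41.

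Markers of other cell types and fibre types differed between the genotypes in the same arrays, and fewer cells of a type and less RNA per cell cannot be told apart in whole muscle. All 12 macrophage markers were higher, with a mean of 8.28 to 8.51 in wild type and 8.91 to 9.09 in knockout arrays, led by Lyz2 at 0.94 ± 0.05 and Tyrobp at 0.63 ± 0.05. All 10 endothelial markers were lower, with a mean of 9.53 to 9.71 against 9.23 to 9.35, led by Cdh5 at -0.32 ± 0.06 and Emcn at -0.59 ± 0.11. Slow fibre markers were higher in 7 of 8, with a mean of 8.28 to 8.48 against 8.49 to 9.21. They were led by Tnni1 at 1.00 ± 0.17 and Atp2a2 at 0.76 ± 0.15, and Myl2 was the lower one at -0.24 ± 0.28. Markers of immature fibres were higher in 6 of 6, with a mean of 8.31 to 8.34 against 8.72 to 8.84, led by Myh3 at 0.66 ± 0.05 and Ncam1 at 1.01 ± 0.14.

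Fast fibre markers, which belong to fibres known for high phosphorylase activity, overlapped, with a mean of 13.17 to 13.29 in wild type and 13.19 to 13.26 in knockout arrays. They were lower in 2 of 6 and higher in 4, or 3 and 3 with arrays centred on their medians. The 2 with the smallest p, Mylk2 at -0.25 ± 0.09 and Tnnc2 at -0.08 ± 0.04, were the lower ones with all arrays as deposited, and Myh1, Myh2, Myh4 and Pvalb differed by 0.01 to 0.22. Fibroblast markers were higher in 5 of 7, with means that overlapped (10.37 to 10.79 against 10.59 to 11.04). Dpt differed by 0.42 ± 0.08 and Pdgfra by 0.53 ± 0.11. The lower ones were Col1a1 at -0.28 ± 0.26 and Col1a2 at -0.20 ± 0.21. Fat cell markers were lower in 4 of 5, with means that also overlapped (7.67 to 7.94 against 7.48 to 7.72). Adipoq differed by -0.34 ± 0.12 and Retn by -0.36 ± 0.14, and Lep was the higher one at 0.02 ± 0.07. Schwann cell markers overlapped (mean 8.75 to 8.82 in both groups, with Mbp at -0.04 ± 0.03 and S100b at 0.03 ± 0.03), and Alas2, the blood marker measured here, ran from 8.38 to 9.23 against 7.63 to 9.52. The counts of macrophage, endothelial, slow, immature, fibroblast and fat cell markers in each direction were the same after quantile normalization and after median centring. Array values have no true zero, so no marker can be called absent. Of these markers Lyz2, Tyrobp and Myh3 passed in limma (adjusted p = 0.0088, 0.017 and 0.022). The part that these shifts have in the values of Ugp2, Gbe1 and Epm2a was not tested.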

How the data were processed

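The deposited table holds 1 value per probe set for 28856 probe sets on 7 arrays. Per the labels, RNA was extracted with TRIzol, and 100 ng per sample was biotin-labelled with an Ambion kit (WT Expression). The deposited values were taken to be on a log2 scale, because they run from 4.41 to 14.65 and a 16-bit scanner reaches only 11.09 on a natural log scale. Normalization was not given in the sources used here, nor was the genome build. Any scaling of the arrays would hide a shift shared by all genes. Unused columns numbered 0.

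Probe sets with exactly 1 gene symbol in the platform annotation (21789) were tested, 21698 of them matched to RefSeq GRCm38.p6 by gene identifier. Those with several symbols (1621) or none (5446) were not named. A gene was read through its brightest probe set. Knockout was compared with wild type in limma 3.58.1 (R 4.3.3, lmFit and eBayes, no covariate), Benjamini-Hochberg adjustment over the whole tested table and a threshold of 0.05. Values with ± are differences and moderated standard errors unless marked SD. The method was tested on simulated data. The design text counts mice, so each array was 1 mouse.

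The 9 genes and all lists were chosen with earlier results of these data known. Named genes were the 9, the AMPK subunits, isoforms and partners of the 9, the 4 further pathway genes and the 2 markers per list with the smallest p, and the 3 closest profiles of the 3 most variable members. Of the 40 glycogen genes listed, 37 were measured. Promoter runs came from RefSeq's table, in which all 9 symbols matched. Alternatives were other scalings, filters, weights, priors, probe set rules and thresholds, the replicate number as a block, and leaving out each array.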

Additional observations from a re-analysis of the deposited data

Results flagged for a closer look

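In 11 of the 44 wild type groups listed (the 9 genes, 28 further glycogen genes and 7 AMPK subunits), 1 of the 4 arrays lay far from the other 3. Pygl held the same value in all 4 wild type arrays and was skipped. Chance gives about 1 in 20, and values shared between arrays shrink the range of the others. Pygm read 13.831 in wild type replicate 3 and 13.825 in the other 3 arrays. Ppp1r3f read 7.65 in replicate 4 against 7.50 in each of the others, and Nhlrc1 read 9.48 in replicate 3 against 9.52 in each of the others. Pgm2 read 8.03 in replicate 4 against 8.21 to 8.23, and Gaa read 11.75 in replicate 1 against 11.65 to 11.66. Replicate 3 was high for Calm2 (11.34 against 11.22 to 11.23), Ppp1r3b (7.39 against 7.31 to 7.32) and Prkag1 (11.01 against 10.85 to 10.87), and low for Prkab2 (11.23 against 11.33 to 11.34). Gsk3a read 11.22 in replicate 1 against 11.17 in the others. Prkaa2 read 12.03 in replicate 2 against 12.28 to 12.31, so this wild type array lay at the level of the knockout arrays.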

How the results depend on the processing

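No glycogen gene passed an adjusted p of 0.05 in limma under any of the 17 alternatives, 0.10 as the threshold included, and 8 of the 9 kept their sign in all 16 fits. The exception was Phka1, which ran from -0.081 to 0.013 (the latter without wild type replicate 2). The adjusted p of Ugp2 ranged from 0.097 to 0.54. The number at an unadjusted p under 0.05 was 4 or 5 in the fits of all arrays and 1 to 5 with 1 array left out. The median over the 9 genes ran from -0.094 to -0.033 without 1 array. That over the further pathway genes ran from -0.071 to -0.039, and was -0.075 with arrays centred on their medians. The number of those genes at an unadjusted p under 0.05, added after seeing the data, was 6 under array weights and ran from 1 to 7 without 1 array. Over all genes that number was 2118 in the main fit, 2705 under array weights and 1484 to 2687 without 1 array. Genes called over the whole table ran from 0 to 14 without 1 array and numbered 72 at an adjusted p under 0.10. The 5 called with all arrays split into 4 higher and 1 lower, and the 6 called after quantile normalization into 4 and 2. With the replicate number as a block, genes called were 0 (1653 at an unadjusted p under 0.05), the further pathway median was -0.039 and 5 of the 9 had an unadjusted p under 0.05. Deviations of same-numbered arrays correlated at 0.30, 0.15 and -0.20, and those of differently numbered arrays at -0.27 to 0.20. So few pairs cannot settle whether the numbers mark a pairing. The number of arrays limits every value.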
